A study of Homo sapiens with 12 samples.

Results

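Sorafenib is a small-molecule inhibitor that binds the RAF kinases and a group of receptor tyrosine kinases. Among its targets, 9 were followed here by their symbols: the RAF kinases ARAF and BRAF, the VEGF receptors FLT1 (VEGFR1), KDR (VEGFR2) and FLT4 (VEGFR3), the PDGF receptor PDGFRB, the stem cell factor receptor KIT, the FLT3 ligand receptor FLT3, and RET, the receptor of the GDNF family. Of the 9 genes, 8 had a probe named for them in the annotation used, among 18852 genes measured in all. BRAF was not analysed here. For a gene with several probes the one with the highest mean log2 intensity was taken.

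The cells were HD-MyZ, an established line labelled as human Hodgkin lymphoma. They were cultured for 24 hours with 10 µM perifosine, an alkylphospholipid that hinders AKT, with 5 µM sorafenib, with both drugs (here called the combination), or as the control, and RNA was put on Illumina expression arrays. Each of the 4 groups had 3 arrays, lettered A, B and C. Nothing in the labels says whether the 3 came from separate cultures, so p-values measure only the spread between these arrays, which may be technical, and the result is limited to 1 cell line.

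RAF kinases carry the signal from RAS at the membrane to MEK and then ERK, which switches on growth genes. They work as dimers, and feedback from ERK onto receptors, RAS and RAF normally holds the flow down. The receptors stand upstream: a ligand dimerises them, they phosphorylate themselves, and adaptors such as GRB2 then bring RAS activators to the membrane. Sorafenib blocks these enzymes as proteins. An array reads their transcripts, which tells whether a target is made in the cells and whether its mRNA level moves during treatment, not how far the enzyme is inhibited.

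The arrays held deposited intensities of comparable distribution, with a median of 322 and a range of 170 to 71906, and the depth of an array is not a count, so the number of arrays limits the precision. A background limit was set for each array at the 95th percentile of 377 olfactory receptor genes, which are silent outside the nose in most tissues. It lay between 408 and 459 on the 12 arrays. A gene was called above background in a group when all 3 of its arrays exceeded their limits, and 9238 of 18852 genes (49.0%) met this in all 4 groups, against 10 of the 377 olfactory receptor genes. Control C, sorafenib B and combination A stood apart, each correlating less with its group mates than these did with each other. The calls of the targets were also read without them, in every comparison. For VEGFA, VEGFC, GRB2, PIK3R1, MAP2K1, DUSP5, DUSP6, SPRY4, PDGFRA and DDR2 this was done in fewer comparisons. These were the comparisons with control and the average of the sorafenib differences with and without perifosine. Where a call changed, the value without the 3 arrays is given. The calls of the other named genes were not read without them. Of 10 genes typical of Hodgkin cells, 5 were above background in all groups: FUT4, TRAF1, JUNB, FSCN1 and BATF3. CD274 exceeded the limit on 11 arrays. TNFRSF8 (CD30), PAX5, IRF4 and CCL17 were at background on every array, so CD30, a defining marker of classical Hodgkin lymphoma, was not detected in the line as profiled.

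Of the 8 measured targets, ARAF was the only one above background in all 4 groups. KIT was above background in the sorafenib group alone. FLT1, KDR, FLT4, PDGFRB, FLT3 and RET were in no group above background by this rule. Across the 7 receptors and 12 arrays, 13 of 84 values (15.5%) exceeded the limit, 5 of them for KDR, 7 for KIT and 1 for PDGFRB, and the receptor value farthest over its limit was 39.3% above it. With the 99th percentile of the olfactory receptor genes as the limit, with a fixed limit at log2 intensity 9, or with the mean of a gene's probes, ARAF was again the 1 target above background in all groups, and it was then also the only one above background in any group: KIT was not above background in the sorafenib group under any of these 3 limits.

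**Figure D1:**
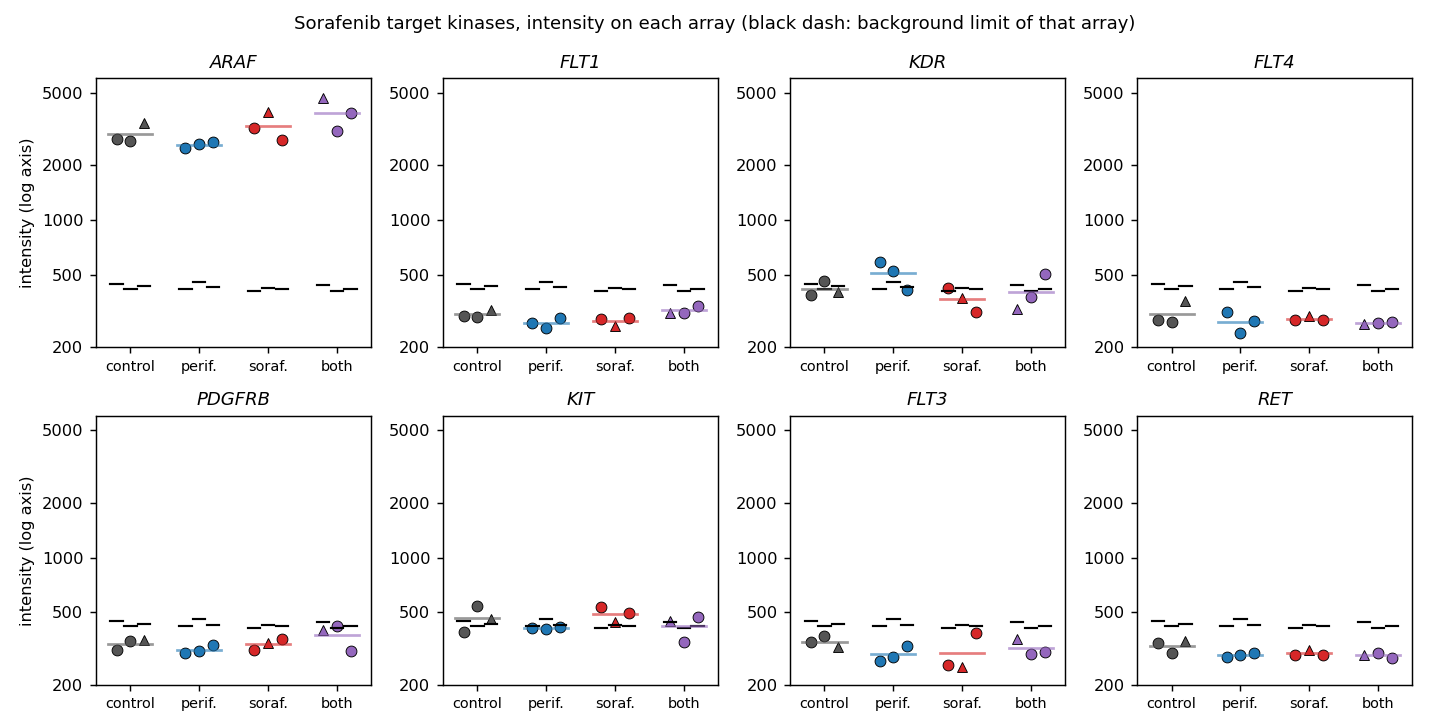
Intensity (log axis) of the 8 measured sorafenib targets on each of the 12 arrays, by group; the horizontal coloured line is the group mean, the short black dash is the background limit of that array, and triangles mark the 3 arrays that stood apart. ARAF lies between 2496 and 4677 on all arrays, while every receptor lies between 239 and 586, at or near the limit.

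ARAF, the A isoform of RAF and the weakest of the family as a MEK kinase, was measured by 1 probe. Its intensity was 2776, 2721 and 3420 in control A, B and C. With perifosine it was 2496, 2603 and 2692. With sorafenib it was 3223, 3915 and 2746. The combination gave 4677, 3095 and 3858. The lowest of the 12 values was 5.67 times and the highest 10.6 times the background limit of its array. In order of the group means, the combination (3877 ± 792, SD, n = 3) stood above sorafenib (3295 ± 588, SD, n = 3), control (2972 ± 389, SD, n = 3) and perifosine (2597 ± 98.2, SD, n = 3). No neighbouring pair in that order differed by limma's test over all genes, with an adjusted p of 0.999 for the combination against sorafenib, 0.790 for sorafenib against control and 0.931 for perifosine against control. All 3 perifosine arrays lay below all 3 control arrays and below all 3 combination arrays. The control values overlapped those of sorafenib and of the combination. Such separation, in either direction, was common: 17.5% of all 18852 genes showed it between perifosine and control, and 23.1% between the combination and perifosine.

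The promoter windows of 3 targets are printed because they set the one target transcribed well above background beside a pair of receptors that were not, KIT and PDGFRB. Windows are RefSeq's for GRCh38.p14, 300 bases each, from 250 bases before to 50 bases after the annotated start, on the strand of the gene. CpG dinucleotides (CG, the same letters on both strands) are in capitals, since clusters of them mark the promoters of many widely expressed genes.
ARAF, chrX:47560955-47561254, plus strand: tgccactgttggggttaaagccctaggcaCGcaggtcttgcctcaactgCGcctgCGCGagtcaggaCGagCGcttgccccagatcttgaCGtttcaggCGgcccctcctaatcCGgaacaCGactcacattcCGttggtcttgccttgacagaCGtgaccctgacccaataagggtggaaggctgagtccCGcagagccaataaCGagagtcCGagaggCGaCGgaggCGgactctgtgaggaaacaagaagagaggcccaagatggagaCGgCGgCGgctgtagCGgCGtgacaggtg
KIT, chr4:54657707-54658006, plus strand: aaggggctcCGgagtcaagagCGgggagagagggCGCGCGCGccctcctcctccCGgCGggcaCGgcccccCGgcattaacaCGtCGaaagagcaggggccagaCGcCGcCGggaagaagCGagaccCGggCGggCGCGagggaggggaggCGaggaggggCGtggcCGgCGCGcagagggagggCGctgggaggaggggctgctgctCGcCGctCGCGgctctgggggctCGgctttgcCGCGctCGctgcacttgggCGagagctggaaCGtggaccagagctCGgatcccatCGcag
PDGFRB, chr5:150155796-150156095, minus strand: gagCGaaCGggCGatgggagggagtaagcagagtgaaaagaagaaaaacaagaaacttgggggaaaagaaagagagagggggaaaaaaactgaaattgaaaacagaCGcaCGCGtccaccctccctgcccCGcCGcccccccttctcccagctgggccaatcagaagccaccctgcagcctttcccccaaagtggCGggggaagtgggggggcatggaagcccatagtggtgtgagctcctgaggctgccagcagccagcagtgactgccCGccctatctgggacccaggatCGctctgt

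The ARAF window held 23 CpG dinucleotides, and 35.8% of all 35116 windows of this length held at least as many. KIT held 38 and PDGFRB 11, with 9.91% and 54.7% of all windows holding at least as many. Among the other receptors the count was 22 for KDR, 33 for FLT1 and 34 for FLT3, and RET had a pair of windows with 41 and 10. So FLT1, FLT3, KIT and 1 of the RET windows held more CpG dinucleotides than ARAF, although their transcripts stayed near the background. A window was found for 8 of the 9 genes, including BRAF with 16. These counts describe sequence letters and say nothing of methylation or of factor binding in the line.

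KDR, the main signalling receptor of VEGFA in endothelium, exceeded the limit on 5 of the 12 arrays. Control A, B and C read 387, 464 and 403. Perifosine gave 586, 528 and 416, sorafenib 424, 374 and 312, and the combination 324, 377 and 509. The perifosine group had 2 arrays over the limit and the other groups had 1 each, and every pair of groups overlapped. In limma's fit the log2 difference was 0.28 (SE 0.18, adjusted p 0.881) for perifosine against control and -0.27 (SE 0.13, adjusted p 0.296) for sorafenib averaged over the presence of perifosine, on values of which most lay below the limit. These 2 differences therefore did not pass the test.

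KIT, the receptor that mast cells and blood progenitors need for survival, exceeded the limit on 7 of the 12 arrays. Its values were 390, 544 and 462 in control, 410, 404 and 414 with perifosine, 537, 444 and 496 with sorafenib, and 449, 345 and 469 with the combination. By group, 2 control arrays, 0 perifosine arrays, 3 sorafenib arrays and 2 combination arrays were over the limit. The combination minus sorafenib difference was -0.23 on the log2 scale (SE 0.15, adjusted p 0.999) and the sorafenib minus control difference was 0.09 (SE 0.15, adjusted p 0.863), so neither passed the test. A second KIT probe lay between 219 and 339 and was above the limit on 0 arrays, so the probes of this gene did not agree on its detection. Of 5 measured mast cell markers, among them TPSAB1 and CPA3, all were at background on all 12 arrays.

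FLT1, the VEGF receptor that binds VEGFA, VEGFB and PGF, was at background on all arrays. Control read 299, 294 and 321, perifosine 274, 257 and 292, sorafenib 288, 261 and 290, and the combination 311, 308 and 339. The control values lay above those of perifosine and of sorafenib, and the combination values lay above those of either drug alone. All 12 were below their limits, so no fold is given. Of all genes, 17.5% did not overlap between perifosine and control and 17.7% between sorafenib and control. For the combination the shares were 23.1% against perifosine and 7.55% against sorafenib, and no change of FLT1 is drawn from this. FLT4, the receptor of VEGFC on lymphatic endothelium, read between 239 and 360 on its brightest probe, and its other probes reached 314 and 294. The highest FLT4 value was that of control C, an array that stood apart, and in the control group A and B read 285 and 275.

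PDGFRB, the PDGF receptor of pericytes and fibroblasts, exceeded the limit on 1 array, combination B, at 421. The other combination arrays read 401 and 305, and the remaining groups lay between 301 and 358. FLT3, the receptor of early blood progenitors and a frequent target of mutation in acute myeloid leukaemia, lay between 251 and 383 with 0 arrays above the limit. RET, the receptor of GDNF family ligands in neural crest and kidney, had 3 probes, none above the limit, and its brightest one lay between 282 and 349. A level below the limit is not evidence that the gene is silent: it was not detectable by these probes.

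In the comparison of each drug with control, 0 of the 8 targets passed limma's test at an adjusted p of 0.05. Perifosine against control called 56 of 18852 genes, or 0.297%, and 0 of 8 targets had an unadjusted p under 0.05, against 7.15% of all genes. Sorafenib against control called 425 genes, or 2.25%, and again 0 targets had an unadjusted p under 0.05, against 15.1% of all genes. The combination against control called 343 genes, or 1.82%, and here ARAF alone among the targets had an unadjusted p under 0.05, as did 12.8% of all genes. Its log2 difference was 0.37 (SE 0.17, 95% interval 0.0045 to 0.74) with an adjusted p of 0.386.

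Adding sorafenib to perifosine, the combination against perifosine, called 414 genes, or 2.2%. ARAF was 0.56 higher on the log2 scale (SE 0.17, 1.47-fold) in the combination, with an adjusted p of 0.136, and FLT1 was the other target with an unadjusted p under 0.05, as had 12.5% of all genes. Without sorafenib B, which takes no part in the difference itself but enters the common estimate of spread, the adjusted p of ARAF was 0.0492, the only one of 20 alternatives that called it. The combination against sorafenib called 0 genes, or 0%, in limma's test, with 643 genes and 0 targets at an unadjusted p under 0.05.

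Averaged over arrays with and without perifosine, sorafenib called 1356 genes, or 7.19%, but 0 of 8 targets. ARAF came closest: its 6 arrays with sorafenib had a lowest, median and highest intensity of 2746, 3540 and 4677, against 2496, 2706 and 3420 on the 6 arrays without it. The ranges overlapped. The averaged log2 difference was 0.35 (SE 0.12, 1.27-fold, 95% interval 0.091 to 0.61) with an unadjusted p of 0.0125 and an adjusted p of 0.112, where 19.5% of all genes had an unadjusted p under 0.05. The interval leaves room for a rise of up to 1.52-fold and the miss of the threshold does not show an equal level. In the 3 arrays that stood apart, ARAF was above the mean of the group mates by 0.32 (control C), 0.40 (sorafenib B) and 0.44 (combination A) on the log2 scale. Without these 3 arrays the averaged ARAF difference was 0.26, with an adjusted p of 0.0788 in a test that called 2541 genes.

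Whether the effect of sorafenib depended on perifosine was asked with the interaction term, which called 3 genes, or 0.0159%, and 0 targets. The ARAF interaction was 0.42 on the log2 scale (SE 0.24, adjusted p 0.993). FLT1, at background on all arrays, had an unadjusted p under 0.05 in this term, as had 4.89% of all genes.

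**Figure D2:**
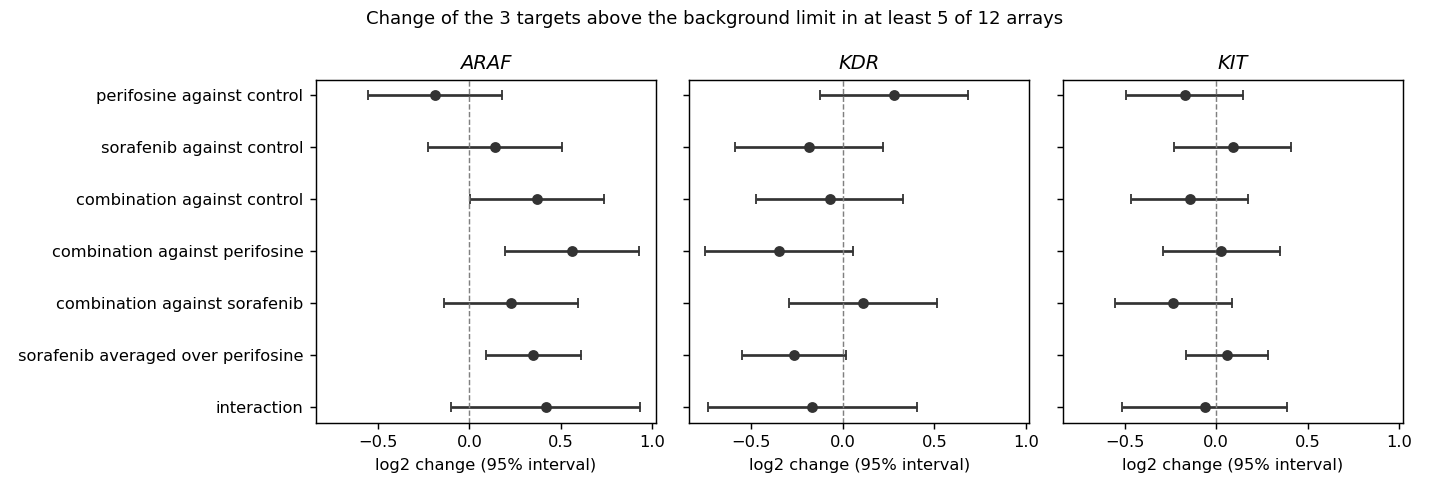
Log2 difference (points) with its 95% interval (bars) from limma for the 3 targets that exceeded the background limit on at least 5 of 12 arrays, in each of the 7 comparisons; the interaction is a difference of differences. ARAF intervals lie above 0 in 3 comparisons, those of the combination against control, the combination against perifosine and sorafenib averaged over perifosine, and every KDR and KIT interval spans 0; no adjusted p passed 0.05.

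The genes whose intensity followed that of ARAF most closely over the 12 arrays, among 9237 others above background in all groups, were METTL14, a subunit of the RNA methyltransferase complex (Pearson r 0.96, Spearman rho 0.94), VPS51, a vesicle tethering protein (r 0.95, rho 0.84), and TRAF3IP2, an adaptor of IL-17 receptors (r 0.95, rho 0.87). These are descriptions over arrays that share the same groups and the same 3 arrays that stood apart.

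The ligands of the receptors were partly transcribed. Of 5 VEGF family ligands, 3 were above background in all groups: VEGFA, VEGFB and VEGFC. VEGFB, a ligand of FLT1, was called in no comparison. It read 11879, 10747 and 10682 in control and 10841, 9493 and 11099 with perifosine. With sorafenib it read 14007, 8593 and 14530, the low value on sorafenib B, an array that stood apart. The combination gave 14788, 15109 and 13863, all above control, and 19.3% of all genes did not overlap between these groups. VEGFC, the ligand of FLT4, read 5514, 6102 and 5551 in control and 11728, 11040 and 14365 with perifosine, so the groups did not overlap. It rose with perifosine by 1.11 on the log2 scale (SE 0.13, 2.15-fold, adjusted p 0.00706), and passed under all 20 alternatives. With sorafenib it read 4254, 3467 and 4321 and with the combination 3923, 4383 and 3554, all below every control array. Separation from control, in either direction, was seen for 17.7% of all genes with sorafenib and 19.3% with the combination. The VEGFC differences from control were not called, at -0.52 for sorafenib (adjusted p 0.0713) and -0.54 for the combination (adjusted p 0.0698). For the combination the adjusted p was 0.0474 without the 3 arrays that stood apart and 0.0226 without sorafenib B. Against perifosine alone, where VEGFC had risen, the combination was lower by 1.64 (log2 change -1.64, adjusted p 7.44e-05), and the average of both sorafenib differences was -1.08 (adjusted p 6.68e-05). VEGFA, the main ligand of KDR and FLT1, was named after its values were seen. Averaged over perifosine it rose with sorafenib by 0.76 (SE 0.18, adjusted p 0.0288), but sorafenib B at 5157 and combination A at 5275 were the highest arrays, against 2567 and 2500 in sorafenib A and C. Against control VEGFA was not called with the combination (0.72, adjusted p 0.242), but was without sorafenib B (adjusted p 0.0261) and without the 3 arrays that stood apart (0.67, adjusted p 0.0124). The averaged VEGFA call was lost under 8 of 19 alternatives, with adjusted p up to 0.0803: with the letter as a block, and on leaving out control A or B, any 1 perifosine array, or combination A or C. Without all 3 arrays that stood apart the average was 0.57 (adjusted p 0.00123).

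Among the PDGF ligands only PDGFC was above background in all groups, at 1967 to 7116, and among the other ligands only KITLG, the ligand of KIT, at 625 to 1266. FLT3LG exceeded the limit on 5 arrays and the RET ligand NRTN on 3, and the RET ligands ARTN and PSPN on none. The VEGF coreceptors NRP1 and NRP2 and the GDNF family coreceptor GFRA2 were above background in all groups, NRP1 at 5545 to 13314. Of these 15 ligand and coreceptor genes outside the VEGF ligands, 0 passed limma's test in any of the 7 comparisons.

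Downstream of RAS, 7 of 9 measured genes of the RAS-RAF-MEK-ERK cascade were above background in all groups: HRAS, RRAS2, MAP2K1, MAP2K2, MAPK3, LAMTOR3 and SHOC2. MAP2K2, the MEK2 kinase, read 5085 to 10294. None of the 9 passed the test against control with either drug or with both, and the median log2 change of the list was -0.22 for sorafenib, against 0.00 over all genes. MAP2K1, which encodes the MEK1 kinase that RAF phosphorylates, was the 1 gene called in the average over perifosine, where it fell by 0.34 on the log2 scale (SE 0.084, adjusted p 0.0329). That MAP2K1 call was lost under 13 of 19 alternatives, with adjusted p up to 0.108, among them leaving out any 1 array other than sorafenib B or combination A, and MAP2K1 was named after its values were seen. Without the 3 arrays that stood apart the averaged MAP2K1 change was -0.43 (adjusted p 0.00312), and MAP2K1 was then also called against control with sorafenib (-0.48, adjusted p 0.0334) and with the combination (-0.50, adjusted p 0.0227). Leaving out sorafenib B alone also called both, with adjusted p of 0.0472 and 0.0424.

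Regulators of the cascade include feedback inhibitors that ERK itself induces. Of 11 measured, 9 were above background in all groups, and the median log2 change of the list was 0.22 with perifosine and -0.23 with sorafenib. SPRY2, an inhibitor of receptor signalling to RAS, read 12920 to 26617 and was not called. DUSP5, a nuclear ERK phosphatase, read 21750, 22103 and 37650 in control and 9979, 13483 and 10253 with sorafenib. It fell by 1.24 on the log2 scale with sorafenib (adjusted p 0.0141) and by 1.04 with the combination (adjusted p 0.0315). The combination call was lost under 8 of 20 alternatives, with adjusted p up to 0.114, including each one that left out a control or combination array and the one without perifosine B, while the sorafenib call was lost only in a fit of its own groups (adjusted p 0.166). SPRY4, an inhibitor of RAS activation, read 18860, 17629 and 22621 in control and 10469, 11379 and 10407 with sorafenib, a fall of 0.87 (adjusted p 0.0170). Without control A its adjusted p was 0.0525 and without control C 0.0693. DUSP6, a cytoplasmic ERK phosphatase, rose with perifosine by 0.88 (adjusted p 0.0471), from 4329, 3489 and 4683 to 8138, 7490 and 7232. That call was lost under 14 of 20 alternatives, with adjusted p up to 0.223, including the absence of any 1 control, perifosine or combination array or of sorafenib C. Against control, the DUSP6 difference was not called with sorafenib (-0.64, adjusted p 0.0639) or with the combination (-0.40, adjusted p 0.294), and against perifosine alone, where DUSP6 had risen, the combination was lower by 1.28 (log2 change -1.28, adjusted p 0.00131). The average of the sorafenib differences with and without perifosine was -1.33 for DUSP5, -1.09 for SPRY4 and -0.96 for DUSP6 on the log2 scale, with adjusted p of at most 0.00248 under all alternatives. Without the 3 arrays that stood apart, the combination minus control difference of DUSP5 was -0.77 (adjusted p 0.0127), DUSP6 was called with sorafenib (-0.70, adjusted p 0.0128), and DUSP5 and SPRY4 were called higher with perifosine (0.65, adjusted p 0.0377, and 0.75, adjusted p 0.0214). Without sorafenib B alone, the DUSP6 difference with sorafenib was -0.79 (adjusted p 0.0181) and SPRY4 passed in the combination against control (-0.67, adjusted p 0.0249, against 0.0545 with all arrays), as it did without combination C (-0.82, adjusted p 0.0408).

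GRB2, the adaptor that links activated receptors to RAS, read 3683, 3703 and 3933 in control, 2964, 3047 and 3234 with perifosine, 2432, 1964 and 2608 with sorafenib and 2651, 2599 and 2687 with the combination. It fell with sorafenib by 0.70 on the log2 scale (SE 0.11, adjusted p 0.00961), and with the combination by 0.51 (adjusted p 0.0397), where the call was lost under 14 of 20 alternatives with adjusted p up to 0.155, among them the absence of any 1 control, perifosine or combination array or of sorafenib A. The perifosine values were also all below control, but with an adjusted p of 0.545. Of all genes, 17.5% did not overlap between these groups. Averaged over perifosine, the GRB2 difference with sorafenib was -0.46 (adjusted p 0.00422). That average passed under all 19 alternatives, with adjusted p up to 0.0228. Of the other 11 measured adaptors, PIK3R1, a regulatory subunit of PI3K, was the only other one called, and only in the average over perifosine (log2 change -0.46, adjusted p 0.0110); it was named after its values were seen. With the mean of its probes in place of the brightest, the PIK3R1 change was -0.16 and not called (adjusted p 0.181). SHC1, the adaptor that recruits GRB2 to receptors, read 29741 to 43556 and was not called.

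Over the 61 measured ligands, coreceptors, adaptors, cascade members, regulators and further bound kinases together, 2 passed in perifosine against control, 4 in sorafenib against control, 2 in the combination against control, 5 in the combination against perifosine, 0 in the combination against sorafenib, 9 in the average over perifosine and 0 in the interaction. As shares of the 61 these are 3.28%, 6.56%, 3.28%, 8.2%, 0%, 14.8% and 0%, against 0.297%, 2.25%, 1.82%, 2.2%, 0%, 7.19% and 0.0159% of all genes, and nothing particular to the list is drawn from them. Comparisons that share the control arrays are not independent of each other. Fitted on their own, the control and sorafenib groups gave 10 calls in all, which left DUSP5, SPRY4, GRB2 and DDR2 below the threshold, with adjusted p of 0.166, 0.0998, 0.155 and 0.166 in that order.

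Several kinases that sorafenib also binds, or that are close relatives of its targets, were above background. Of 9 such measured genes, 7 were above background in all groups: PDGFRA, DDR1, DDR2, TEK, MAPK11, MAP3K20 and EPHA2. MAP3K20 (ZAK), a stress kinase upstream of JNK and p38, read 20738 to 36959 and was not called. PDGFRA, the other PDGF receptor, is described as the relative of PDGFRB, after its values were seen. It read 4198, 4237 and 4490 in control and 3030, 3497 and 3533 with perifosine. With sorafenib it read 2265, 4351 and 2472 and with the combination 3099, 2124 and 2681. The high sorafenib value is that of sorafenib B, an array that stood apart. The sorafenib minus control difference was -0.57 (SE 0.22, adjusted p 0.220) and the combination minus control difference was -0.73 (adjusted p 0.136), so PDGFRA was not called. Without sorafenib B it was called in both, at -0.86 (adjusted p 0.0118) and -0.73 (adjusted p 0.00828), and without all 3 arrays that stood apart the differences were -0.83 and -0.82 (adjusted p 0.00578 and 0.00500). The average of the sorafenib differences was -0.47 for PDGFRA and not called (adjusted p 0.102). That average was called without the 3 arrays that stood apart (-0.66, adjusted p 0.00058) and without sorafenib B (-0.61, adjusted p 0.00216). With the mean of its probes it was -0.55 (adjusted p 0.0425). DDR2, a collagen receptor kinase, read 5298, 5535 and 5987 in control and 9084, 13968 and 9281 with sorafenib. It rose by 0.92 on the log2 scale with sorafenib (SE 0.16, 1.89-fold, adjusted p 0.0162), and without control A or control B the adjusted p was 0.0609 and 0.0680. In the combination DDR2 read 8469, 7331 and 8877, all above control, with a log2 difference of 0.55 and an adjusted p of 0.129. Of all genes, 19.3% did not overlap between the combination and control. Without the 3 arrays that stood apart the DDR2 difference was 0.76 with sorafenib (adjusted p 0.00906) and 0.57 with the combination (adjusted p 0.0270), and without sorafenib B alone the combination call was also gained (adjusted p 0.0146). Averaged over perifosine, the DDR2 difference with sorafenib was 0.68 (adjusted p 0.00415). That average passed under all 19 alternatives, with adjusted p up to 0.0318. The list's median log2 change with sorafenib was 0.22, against 0.00 over all genes.

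**Figure D3:**
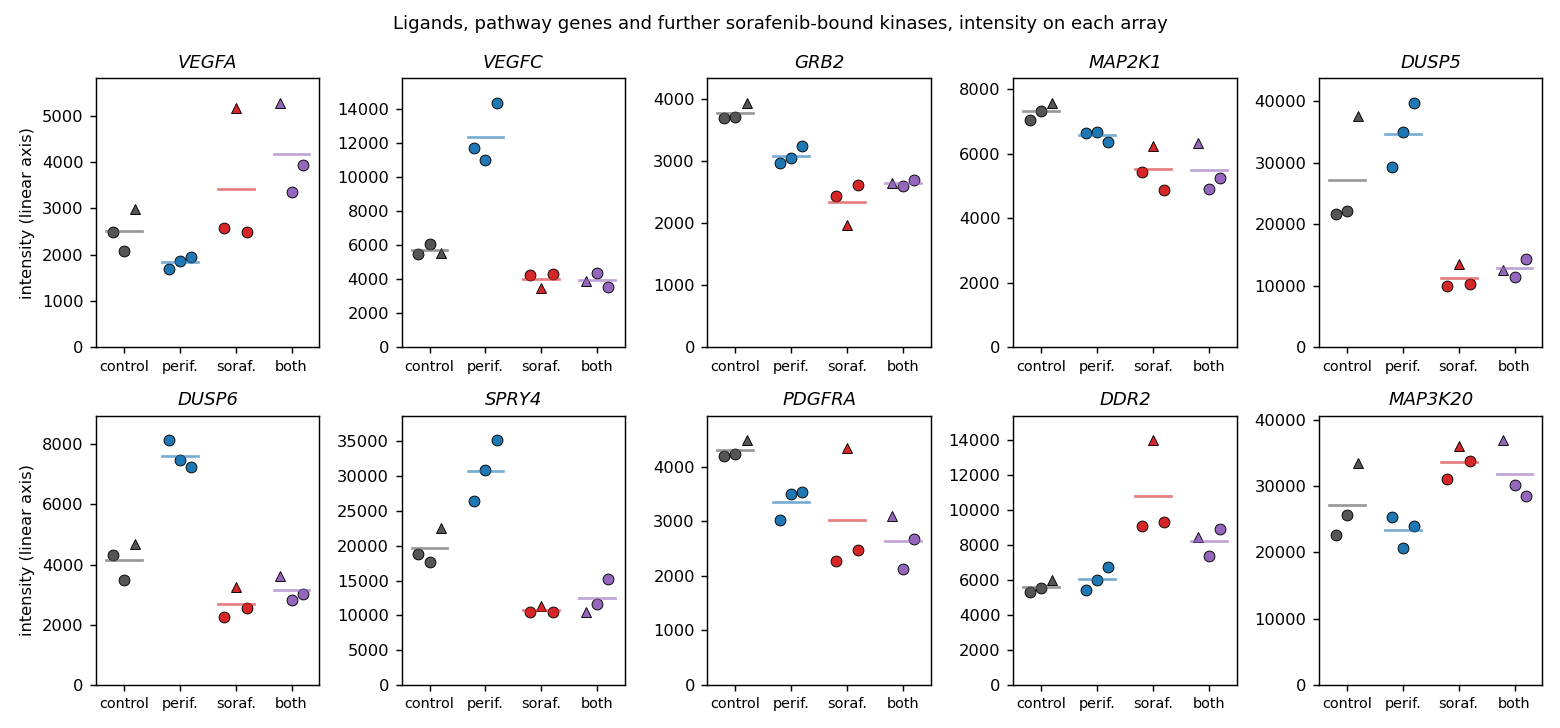
Intensity (linear axis from 0, a separate scale for each gene) on each of the 12 arrays for the VEGF ligands VEGFA and VEGFC, the pathway genes GRB2, MAP2K1, DUSP5, DUSP6 and SPRY4, and the sorafenib-bound or related kinases PDGFRA, DDR2 and MAP3K20; lines are group means and triangles mark the 3 arrays that stood apart. VEGFC and DUSP6 are highest in the perifosine group, DUSP5 and SPRY4 are lower in both groups with sorafenib than in control, and DDR2 is higher there.

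Markers of other cell types were read beside these values, since several receptors define such cells. Among 8 endothelial markers, PECAM1 and TEK were above background in all groups and VWF, CDH5 and EMCN were at background on every array. The summed level of the 8, read beside KDR, ranged from 3914 to 4983 in control, 4820 to 6168 with perifosine, 4506 to 6923 with sorafenib and 4583 to 4726 with the combination. TEK was a large part of it, at 1385 to 4459, with the highest value on sorafenib B, an array that stood apart. ESAM was the 1 of the 8 called higher with perifosine, as were 0.202% of all genes. Of 5 progenitor markers, read beside KIT and FLT3, CD34 was above background on all arrays at 4365 to 5936, and PROM1, SPINK2, MPO and AZU1 were at background on all of them. None of 3 B cell genes was above background in all groups, and all 4 measured T cell genes and CD14, CSF1R and LYZ of monocytes were at background on every array. Of 8 stromal genes, COL1A1, COL1A2, DCN, THY1 and ACTA2 were above background in all groups and were called higher with sorafenib, as were 1.33% of all genes. With the combination 4 of these were called higher, as were 1.12% of all genes. COL1A1 there read 3694, 5105 and 3609 against 2414, 2461 and 1436 in control (adjusted p 0.0668). COL3A1, LUM and RGS5 were at background on all arrays. The summed level of the 8 stromal genes ranged from 38088 to 44694 in control, 32379 to 38047 with perifosine, 79416 to 92717 with sorafenib and 79900 to 97602 with the combination. The part of these cell markers in the KDR, KIT, ARAF and DDR2 readings was not tested. PDGFRB, a receptor of the same cells, was at or near background in all groups.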

How the data were processed

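The deposited intensity values, 1 per probe and array on a linear scale, were made by the authors with BeadStudio, per the submitters' processing notes; its version and normalization are not given in the sources used here. Their sorted columns differ by at most 2.35% and no background appears to be subtracted, so changes of dim genes are understated. A second table without normalization was not used, since its 12 signal columns match no sample's labels. Of 48803 probes, 28098 had 1 gene symbol, 13 several and 20692 none in the platform annotation. No symbol changed against the RefSeq table of GRCh38.p14, which also gave the promoters. Log2 intensities of the brightest probe of each of 18852 genes were fitted with limma 3.58.1 in R 4.3.3 as 4 group means (8 residual and 3.52 prior degrees of freedom), with Benjamini-Hochberg adjustment over all genes, after a test on simulated data. Alternatives were normexp, quantile normalization, dim-gene filtering, mean of probes, robust variance, letter as block, fewer groups and each array, or the 3 that stood apart, left out. The targets and lists were chosen with earlier results of these data known. List genes were named when called against control (up to 3 per list and comparison) or brightest in their list, and otherwise after their values were seen. The letters A to C were not treated as pairs in the main fit. Same-letter deviations correlated between -0.68 and 0.63 (median -0.05, 18 pairs), and different-letter ones between -0.74 and 0.75 (median 0.05, 36 pairs). The 3 arrays that stood apart carry different letters and weigh on these values, so they cannot decide whether the letters pair the arrays.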

Additional observations from a re-analysis of the deposited data

How the results depend on the processing

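No target changed its direction while called, and 0 of 8 targets were called in the main setting of any comparison; the exception among alternatives was ARAF in the combination against perifosine without sorafenib B, where leaving out 1 array at a time gave 0 to 1 called targets. Counts over all genes moved more. Normexp correction gave 30 calls for perifosine, 235 for sorafenib and 201 for the combination against control; robust trended variance gave 34 and 254 for the single drugs. Fitting only the groups compared gave 126 for perifosine, 10 for sorafenib and 843 for the combination against perifosine. Dropping dim genes left 1 interaction call. Leaving out 1 array at a time gave 11 to 155 for perifosine, 111 to 570 for sorafenib, 89 to 1046 for the combination, 215 to 1050 for the combination against perifosine, 861 to 1820 for sorafenib averaged over perifosine and 1 to 4 for the interaction. In each of these the highest count came without sorafenib B, equalled by control B for the interaction. Without the 3 arrays that stood apart, an alternative added after seeing the data, the counts were 293, 876, 1112, 1304 and 2541 for the first 3 comparisons with control, the combination against perifosine and the average. With the replicate letter as a block, a pairing that the correlations could not decide, perifosine gave 37 calls, sorafenib 335, the combination 274 and the average 1094. The causes were not tested. Over the alternatives the ARAF difference for averaged sorafenib ranged from 0.26 to 0.43 (adjusted p 0.0529 to 0.229). KDR and KIT, read mostly near the background limit, changed sign in 14 of 262 uncalled values.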
